A study of Physcomitrium patens with 21 samples.

Results

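Stems of the moss Physcomitrium patens collected 12 h after decapitation were compared with stems collected at 0 h, across all gene models of the deposited count tables. The comparison uses 6 of the 21 libraries of the series, 3 at 12 h and 3 at 0 h, and 20269 of the 32926 gene models had enough read pairs to be tested. All plants were wild type of the Gransden strain, so the groups share the genotype and the cut and differ in the hours that passed after it. The 12 h group, the 6 h, 24 h and 2 h groups and the 0 h group came from 4-week-old colonies grown at 23 °C with 16 h of light and 8 h of darkness per day, with RNA of 5 to 10 gametophores pooled for each replicate. A separate pair of groups, also labelled as stem, received 10 µM of the auxin IAA (indole-3-acetic acid) or the mock solvent for 30 min. Each group had 3 libraries, which the series calls biological replicates. Whether the pools of a group came from separate cultures is not stated, so the p-values measure the spread between these pools.

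Gametophores are the leafy shoots of mosses, and each grows from a single apical cell at its tip. In this species the tip is a source of auxin, which represses the formation of new branches along the stem, and removal of the tip lets epidermal cells of the stem form branch initials. Auxin acts in part by removing repressor proteins from its target genes, so transcripts of such genes can change within minutes of treatment. The comparison with 0 h addresses which transcripts differ once the tip has been gone for 12 h.

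The 12 h libraries held 23131852, 19711928 and 20817206 read pairs on gene models, and the 0 h libraries 21100046, 20885069 and 21289955. Between 94.6% and 96.2% of the reads were mapped in each of the 21 libraries. One library of 0 h stood apart for the genes that fell most, and so did one of 6 h and one of 24 h. The 99 genes with the largest decreases summed to 10470 CPM (read pairs relative to library size, scaled by TMM) in replicate 1 of 0 h, against 5335 and 5258 CPM in replicates 2 and 3 of 0 h, and to 909.2 CPM in replicate 1 of 6 h, against 2996 and 3082 CPM in replicates 2 and 3 of 6 h. At 24 h they summed to 4348 CPM in replicate 3, against 1785 and 2115 CPM in replicates 1 and 2. At 2 h the difference was smaller, with 5313 CPM in replicate 3, against 3441 and 3190 CPM in replicates 1 and 2. Some of the counts and sums that turn on these libraries are also given without them. The classes by fold used for the auxin response and for gene length rest on all libraries. The gene identifiers are not paired with names, so the label stem could not be checked against marker genes and no gene is given a role. The series has no group labelled as uncut stems sampled at the later hours. If all stems were cut at the same hour, the effect of the time of day and the effect of 12 h without a tip cannot be told apart.

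At 12 h large decreases outnumbered large increases, while calls of any size were balanced. Of the 20269 genes tested, 5021 were called higher at 12 h (24.8%) and 5067 lower (25.0%) in edgeR's quasi-likelihood test at a Benjamini-Hochberg adjusted p below 0.05. At least 2-fold higher were 421 of these (2.08%), and at least 2-fold lower were 1059 (5.22%). The imbalance grew with the size of the change. At 8-fold or more, 25 genes were higher and 191 lower, and at 16-fold or more, 12 were higher and 99 lower. In bulk RNA, fewer cells of a type and less RNA per cell cannot be told apart, and this holds for each decrease given here.

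The balance of small changes depended on the scaling between libraries. TMM scaling placed the median log2 change of all tested genes at 0.01. Scaling by library totals alone moved that median by 0.12, to 0.12, and gave 7640 genes higher and 3626 lower, so that 67.8% of the calls were increases, against 49.8% with TMM. Large decreases were also in excess under library totals, where 583 increases and 916 decreases reached 2-fold. Leaving out replicate 1 of 0 h gave 436 increases and 1028 decreases of 2-fold or more, and 381 and 974 of these were among the 421 and 1059. All 3 libraries of 12 h lay above all 3 of 0 h, or all below, in 417 of the 421 and in 1049 of the 1059. The same held for 11756 of all 20269 tested genes and for 1960 of the 10181 genes not called. These counts are no test, since the same libraries chose the genes. Close to the 2-fold limit, 102 called genes lay just inside it and 140 just outside, each within 0.05 on the log2 scale.

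**Figure D1:**
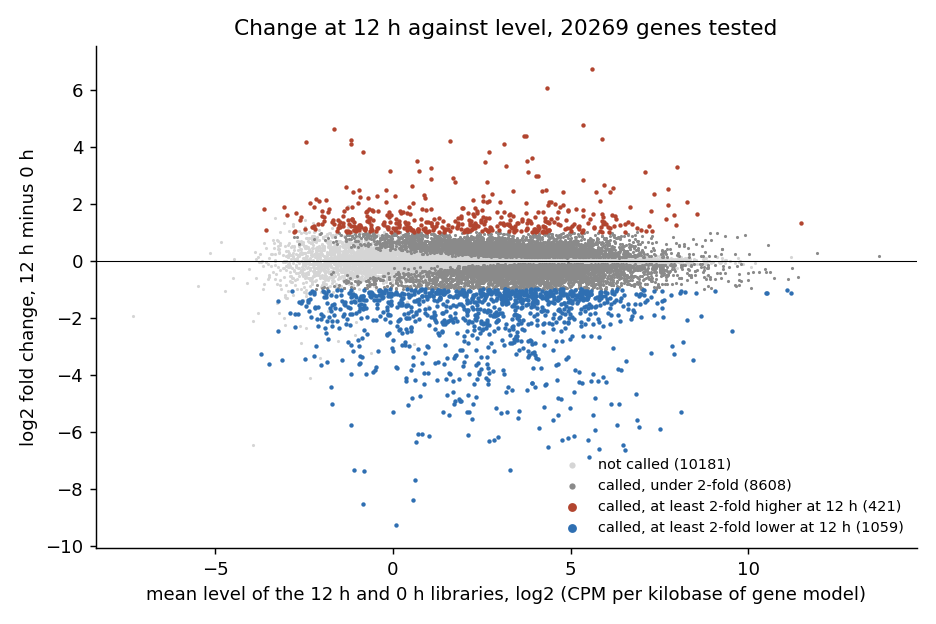
Log2 fold change of 12 h minus 0 h (vertical) against the mean level of the 12 h and 0 h libraries in log2 CPM per kilobase of gene model (horizontal) for the 20269 genes tested, 1 dot per gene. The 421 genes at least 2-fold higher (red) mostly lie close to the limit, and the 1059 genes at least 2-fold lower (blue) reach much further from 0, at low and at high levels.

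The plot of change against level shows large decreases over nearly the whole range of levels. Relative to gene length, the 1059 lower genes had a median of 2.46 CPM per kilobase at 12 h and 10.8 CPM per kilobase at 0 h, so that at 0 h they were about as abundant as the median of all tested genes, which was 9.27 CPM per kilobase. The 421 higher genes had a median of 5.84 CPM per kilobase at 12 h and 1.96 CPM per kilobase at 0 h. Both levels took part in choosing the genes, which favours a high 0 h level in the lower set and a low one in the higher set. Over the 15 decapitation libraries, which include these, the median was 7.04 CPM per kilobase for the lower genes and 3.93 for the higher genes. It was 9.30 CPM per kilobase for all tested genes.

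By difference in level, the gene that gained most was Pp3c7_6560V3.1. It had 4811, 5294 and 4861 CPM in the 12 h libraries, against 1988, 1945 and 1993 CPM in the 0 h libraries. The groups were far apart and the replicates of each close together, with a log2 fold change of 1.34 ± 0.064 (SE; edgeR, adjusted p = 2.2e-10). Its gain was complete by 6 h, where it averaged 5314 ± 402 CPM (SD, n = 3), and the step between 6 h and 12 h was not called (edgeR, adjusted p = 0.271).

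Pp3c8_7680V3.1 was the most abundant of the 4 genes named for their difference in level, with 12390, 12310 and 12920 CPM at 12 h and 11190, 10100 and 12080 CPM at 0 h. Its log2 fold change was small, 0.17 ± 0.063 (SE; edgeR, adjusted p = 0.033). The groups did not overlap, but the lowest library of 12 h lay close to the highest of 0 h. The call was lost without any one of the 3 libraries of 12 h or without replicate 1 or 2 of 0 h, where the adjusted p in edgeR lay between 0.0512 and 0.127, and it was also lost when the 6 compared libraries were fitted alone (adjusted p = 0.07) or all 21 together (adjusted p = 0.0706).

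The 2 genes with the largest losses in level fell by the same factor. Pp3c9_3440V3.1 had 2022, 2146 and 2230 CPM at 12 h, against 4643, 4462 and 4951 CPM at 0 h, a log2 fold change of -1.14 ± 0.064 (SE; edgeR, adjusted p = 1.34e-09). Pp3c9_5310V3.1 had 1988, 2074 and 2034 CPM at 12 h, against 4399, 4380 and 4620 CPM at 0 h, a log2 fold change of -1.14 ± 0.045 (SE; edgeR, adjusted p = 3.22e-11). In both, every library of 12 h lay below every library of 0 h by more than 2000 CPM. Pp3c9_5310V3.1 averaged 1654 ± 58 CPM at 6 h (SD, n = 3) and was called higher at 12 h than at 6 h (edgeR, adjusted p = 0.00012). Pp3c9_3440V3.1 averaged 1962 ± 121 CPM at 6 h (SD, n = 3) and its step was not called (edgeR, adjusted p = 0.148). These steps had the same direction, with log2 differences of 0.30 ± 0.045 and 0.12 ± 0.063 (SE). The difference between them was not tested.

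The extremes of the fold change were of a different kind. The 12 genes at least 16-fold higher had means at 12 h between 0.67 and 359 CPM with a median of 39 CPM, and means at 0 h between 0.0326 and 13.4 CPM with a median of 1.49 CPM. The 99 genes at least 16-fold lower had means at 12 h between 0 and 19.9 CPM with a median of 0.783 CPM, and means at 0 h between 0.765 and 570 CPM with a median of 27.6 CPM. Their gene models were short, with a median of 1412 bases, against 2247 bases for all tested genes and 2165.5 bases for the 12 genes that rose most.

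The 10 largest increases among genes that averaged 5 CPM or more ran from log2 3.60 to 6.74, with standard errors between 0.077 and 0.26. The 10 largest decreases ran from log2 -6.29 to -7.69, with standard errors between 0.65 and 1.4, so the decreases were larger but much less precisely measured. All 10 decreases had their highest 0 h value in replicate 1, and with that library left out the same 10 genes were still called, with log2 fold changes from -5.43 to -7.25. The 10 genes with the largest increases were all called and at least 2-fold lower again at 24 h than at 12 h (2.32% of all tested genes were), and the 10 with the largest decreases were all at least 2-fold higher (4.27%), also when replicate 3 of 24 h was left out. Both comparisons use the 12 h libraries, so these counts are a description. Alone among the times, the 24 h label carries a biotic stress tag, and it names no such treatment.

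Replicates differed widely among the genes that fell most. Of the 99 genes, 89 had their highest 0 h value in replicate 1, and the median gene was 1.96-fold higher in replicate 1 than in replicate 2 or in replicate 3 of 0 h. The median SD of log2 CPM among these genes was 0.53 at 12 h and 0.59 at 0 h, against 0.092 and 0.089 over all tested genes. Among all tested genes, replicate 1 of 0 h was the highest of the 3 in 36.5%. With this library left out, all 99 genes were still called and at least 2-fold lower, with a median log2 change of -4.56, against -5.05 with it, and 80 genes were at least 16-fold lower. The same genes varied together at other times too: replicate 3 was the highest of the 3 libraries in 81 of the 99 genes at 2 h and in 84 at 24 h. Among the 4008 genes less than 2-fold lower, replicate 3 was the highest in 1128 at 2 h and in 1585 at 24 h. The share over all tested genes was not counted for these times. In the 421 higher genes no library stood out in this way, and their median SD of log2 CPM was 0.153 at 12 h and 0.169 at 0 h. What set these replicates apart was not tested.

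For a few genes no read pair was found at 12 h. Over the 3 libraries of each group, 5 gene models had 0 pairs at 12 h and at least 50 at 0 h, and no model had 0 pairs at 0 h and at least 50 at 12 h, where the highest count was 14 pairs. Pp3c18_7460V3.1, singled out after its values were seen, had 0 pairs in each library of 12 h and 123, 55 and 42 pairs in the libraries of 0 h. For counting error alone, the 95% exact Poisson interval of the 220 pairs at 0 h is 192 to 251. With the 0 h pairs taken as counted, against a floor of 3 pairs over the 12 h group, the fold came to 73.8. It is a limit set by the floor and not an estimate of the decrease. With replicate 1 of 0 h left out this limit was 48.8-fold. The counting error of the 0 h pairs did not enter these folds. The transcript was still found at 6 h, with 32 pairs over 3 libraries. It was found again at 24 h, with 31 pairs, far fewer than the 220 at 0 h.

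With a lower limit the difference between directions nearly vanished. There were 81 models with 0 pairs at 12 h and more than 3 at 0 h, and 72 with 0 pairs at 0 h and more than 3 at 12 h. Any pair at all at 0 h and none at 12 h was seen in 857 models, and the reverse in 757. A further 7324 models had no pair in either group. For most of these models the depth is too small to say whether transcripts were absent.

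Whether 12 h differed from 6 h was tested on its own. From 6 h to 12 h, 3408 genes were called higher (16.8%) and 4293 lower (21.2%), and at least 2-fold 251 were higher (1.24%) and 482 lower (2.38%). Leaving out replicate 1 of 6 h gave 195 and 511 genes at least 2-fold higher and lower. The genes that fell and those that rose by 12 h behaved differently over this step. Of the 1059 lower genes, 708 (66.9%) were called lower over the step and 18 higher, with a median log2 difference of -0.75. Of the 421 higher genes, 144 (34.2%) were called higher over the step and 86 (20.4%) lower, with a median of 0.21, while the median over all tested genes was -0.03. The step uses the 12 h libraries that also chose these genes, so the counts describe and do not test. With replicate 1 of 6 h left out, 698 of the lower genes were called lower and 125 of the higher genes were called higher.

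The lower genes reached 12 h by different routes. A group of 517 (48.8%) was called lower at 6 h (23.6% of all tested genes were) and lower again from 6 h to 12 h, a route that 1053 of the 20269 tested genes took (5.20%). Another 275 (26.0%) were called lower at 6 h with no further call, as were 2232 of all tested genes. For 191 genes (18.0%) the decrease was called from 6 h to 12 h and not at 6 h. This share was near that of all tested genes, where it held for 3240 (16.0%). The remaining route, called lower at neither step, held 58 genes (5.48%), against 12251 of all tested genes (60.4%). Without replicate 1 of 6 h the counts of these routes were 456, 265, 242 and 82 genes, in the same order by size. Without replicate 1 of 0 h they were 454, 242, 257 and 88 genes, so the order by size depended on that library. Outside these routes, 18 lower genes (1.7%) were called lower at 6 h and then higher from 6 h to 12 h. The comparisons of 6 h and of 12 h with 0 h share the 0 h libraries.

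Among the 5 times, the lowest mean fell at 12 h in 926 of the 1059 lower genes, at 6 h in 93, at 24 h in 35 and at 2 h in 5. The highest mean fell at 12 h in 241 of the 421 higher genes and at 6 h in 153. The 12 h group was one of those compared in choosing the genes, which favours it in these counts. Shares over all tested genes were not counted.

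**Figure D2:**
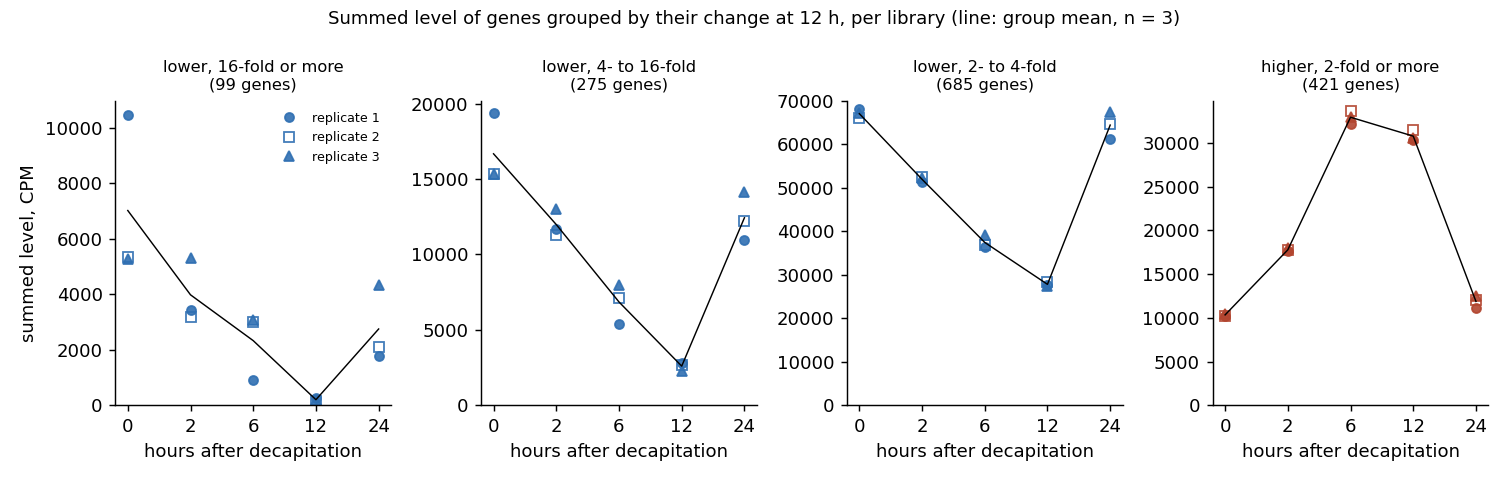
Summed level in CPM (vertical) at 0, 2, 6, 12 and 24 h after decapitation (horizontal) for genes grouped by their change at 12 h against 0 h, with 1 symbol per library and a line through the group means (n = 3). The 99 genes at least 16-fold lower scatter at 0, 2, 6 and 24 h and lie between 165 and 253.1 CPM at 12 h, a range that the linear axis makes look narrow. The 421 higher genes lie close together at each time, with similar sums at 6 h and 12 h.

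The plot of summed levels shows the routes as totals. The 421 higher genes together averaged 10300 CPM at 0 h, 17800 CPM at 2 h, 32900 CPM at 6 h, 30800 CPM at 12 h and 11900 CPM at 24 h, so their total was not larger at 12 h than at 6 h. The 1059 lower genes together averaged 90700 CPM at 0 h, 67900 CPM at 2 h, 46600 CPM at 6 h, 30600 CPM at 12 h and 79600 CPM at 24 h, or 76400 CPM at 24 h without replicate 3. In the 12 h libraries the 99 genes that fell most summed to 253.1, 165 and 181.2 CPM, and in the 0 h libraries to 10470, 5335 and 5258 CPM.

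As a share of read pairs, the lower genes held 3.22% ± 0.057 at 12 h and 8.82% ± 0.56 at 0 h, and the higher genes held 3.25% ± 0.047 at 12 h and 1.00% ± 0.0098 at 0 h (SD, n = 3 each). When the genes were chosen anew without replicate 1 of 0 h, the summed levels of the lower genes were 28900 CPM at 12 h and 84400 CPM at 0 h. With no limit on the fold, genes called lower held 32.6% ± 0.21 of the pairs at 12 h and 45.1% ± 0.12 at 0 h, and genes called higher 29.1% ± 0.23 at 12 h and 19.4% ± 0.25 at 0 h (SD, n = 3 each). These genes were chosen on the same libraries, so the shares are a description. The summed difference was spread over more genes in the lower set than in the higher set. In the lower set 10 genes made up 27.9% of the summed difference in CPM and 52 genes made up 50% of it. In the higher set 10 genes made up 40.4% and 18 genes made up 50%.

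A measure that does not depend on the choice of genes is the share of pairs taken by the most abundant genes of each library. The 100 most abundant genes held 14.5% ± 0.0954 of the pairs at 12 h and 15.8% ± 0.422 at 0 h, and the 1000 most abundant held 38.9% ± 0.0153 at 12 h and 40.5% ± 0.468 at 0 h (SD, n = 3 each). For both shares each library of 12 h lay below each of 0 h, and the two-sided exact permutation p was 0.1, the smallest that 3 against 3 can give. For the 10 most abundant genes the shares were 4.50% ± 0.0581 at 12 h and 4.63% ± 0.23 at 0 h (two-sided exact permutation p = 0.4).

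The genes with the largest steps from 6 h to 12 h had different histories, among genes that averaged at least 5 CPM over both groups with no overlap between groups. Pp3c21_16210V3.1 had 40.8, 33.4 and 37.4 CPM at 12 h, against 1.17, 2.80 and 2.47 CPM at 6 h. It was near its 0 h level at 6 h, so the increase appeared within this step, with a log2 difference of 4.12 ± 0.24 (SE; edgeR, adjusted p = 2.19e-08). By 24 h it was down to 3.89 ± 0.869 CPM (SD, n = 3). Pp3c18_7850V3.1 had 169.8, 157.2 and 142.4 CPM at 12 h, against 25.3, 27.8 and 26.1 CPM at 6 h. At 6 h it had been below its 0 h mean of 50.2 ± 2.05 CPM (SD, n = 3; edgeR, adjusted p = 7.53e-08), so it crossed from lower to higher between 6 h and 12 h, and the step had a log2 difference of 2.57 ± 0.074 (SE; edgeR, adjusted p = 9.44e-12).

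Both genes with the largest decreases in this step under the same limits varied widely before 12 h. Pp3c16_12890V3.1 had 0.491, 0.145 and 0.318 CPM at 12 h, against 4.76, 22.5 and 20.5 CPM at 6 h, a log2 difference of -5.57 ± 1.5 (SE; edgeR, adjusted p = 0.00898). Pp3c2_6110V3.1 had 0.818, 0.677 and 1.14 CPM at 12 h, against 10.8, 43.8 and 34.4 CPM at 6 h, a log2 difference of -5.06 ± 0.69 (SE; edgeR, adjusted p = 5.14e-05). In both, replicate 1 was the lowest library of 6 h. Without it the log2 differences were -6.01 for Pp3c16_12890V3.1 and -5.46 for Pp3c2_6110V3.1.

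**Figure D3:**
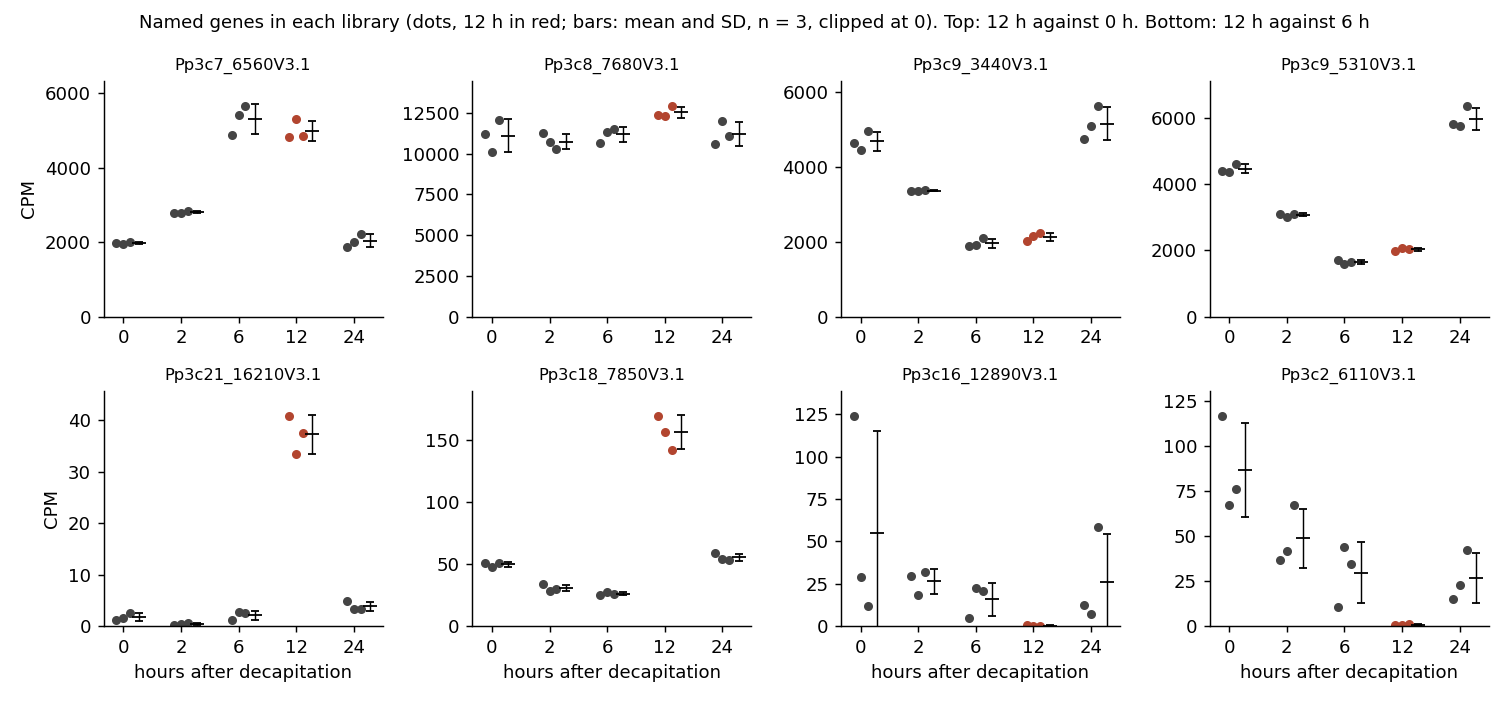
Level in CPM (vertical) of 8 genes in each library at 0, 2, 6, 12 and 24 h after decapitation (horizontal), with dots for libraries, red for 12 h, and bars for the mean and SD (n = 3). The upper genes, named for the difference between 12 h and 0 h, are steady within groups, whereas Pp3c16_12890V3.1 and Pp3c2_6110V3.1 vary between libraries and lie near 0 at 12 h.

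The panels of single genes show the genes of both comparisons at all 5 times. From 12 h to 24 h, 866 genes rose at least 2-fold (4.27%) and 470 fell at least 2-fold (2.32%), and without replicate 3 of 24 h 807 rose and 470 fell. Which direction was more frequent turned with the scaling, since library totals alone gave 661 increases and 743 decreases of 2-fold or more. Pp3c3_9610V3.1, the largest increase of this step among genes that averaged 5 CPM or more over 24 h and 12 h, stood at 1.31 ± 0.0939 CPM at 6 h and at 0.164 ± 0.0285 CPM in the 12 h group (SD, n = 3 each), so it had lost most of what was left of it after 6 h (log2 -2.95 ± 0.22, SE; edgeR, adjusted p = 1.75e-07). Its size and rank from 12 h to 24 h depended on counting pairs. The log2 increase was 6.50 with pairs and 4.61 with reads in place of pairs, where Pp3c16_12890V3.1 had 6.20. Pp3c11_5230V3.1 and Pp3c10_16800V3.1, the largest decreases of this step under the same limit, had still been rising from 6 h to 12 h, by log2 0.37 ± 0.061 and 0.43 ± 0.1 (SE; edgeR, adjusted p = 0.000274 and 0.0036).

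The libraries treated with IAA or mock took no part in choosing the genes, and they give a second readout of the same genes. In this experiment, fitted on its own, 4226 of the 19766 genes tested in both were called higher in IAA than in mock (21.4%) and 3660 lower (18.5%). Genes lower at 12 h were mostly higher in IAA. Of the 1059 lower genes, 977 were tested in both, and 666 of them (68.2%) were called higher in IAA, 29 (2.97%) lower and 282 not called, with a median log2 difference of 0.84, against -0.02 over all genes tested in both. At least 2-fold higher in IAA were 418 of them (42.8%, against 4.67% of all genes tested in both). These 418 are 45.2% of the 924 genes at least 2-fold higher in IAA.

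Genes higher at 12 h were more often called lower than higher in IAA. Of the 421 higher genes, 374 were tested in both, and 150 of them (40.1%) were called lower in IAA, 46 (12.3%) higher and 178 not called, with a median log2 difference of -0.31. At least 2-fold lower in IAA were 65 of them (17.4%, against 1.36% of all genes tested in both), which is 24.2% of the 269 genes at least 2-fold lower in IAA. When replicate 1 of 0 h was left out, 68.1% of the lower genes were called higher in IAA and 39.8% of the higher genes were called lower in IAA. The difference between the lower and the higher set was not tested.

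Among the lower genes the auxin response grew with the size of the decrease. The median log2 difference between IAA and mock was 0.17 for genes less than 2-fold lower at 12 h, 0.65 for those 2- to 4-fold lower, 1.37 for those 4- to 16-fold lower and 2.44 for those at least 16-fold lower. Called higher in IAA were 42.5%, 64.8%, 76.5% and 70.9% of these classes, the last being 61 of 86 genes, of which none was called lower. Among the higher genes the shares called lower in IAA were 32.7% below 2-fold, 37.7% at 2- to 4-fold, 52.9% at 4- to 16-fold (27 of 51) and 50.0% at 16-fold or more (5 of 10). Genes not called at 12 h lay near or below the background, with 14.3% higher and 16.7% lower in IAA.

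**Figure D4:**
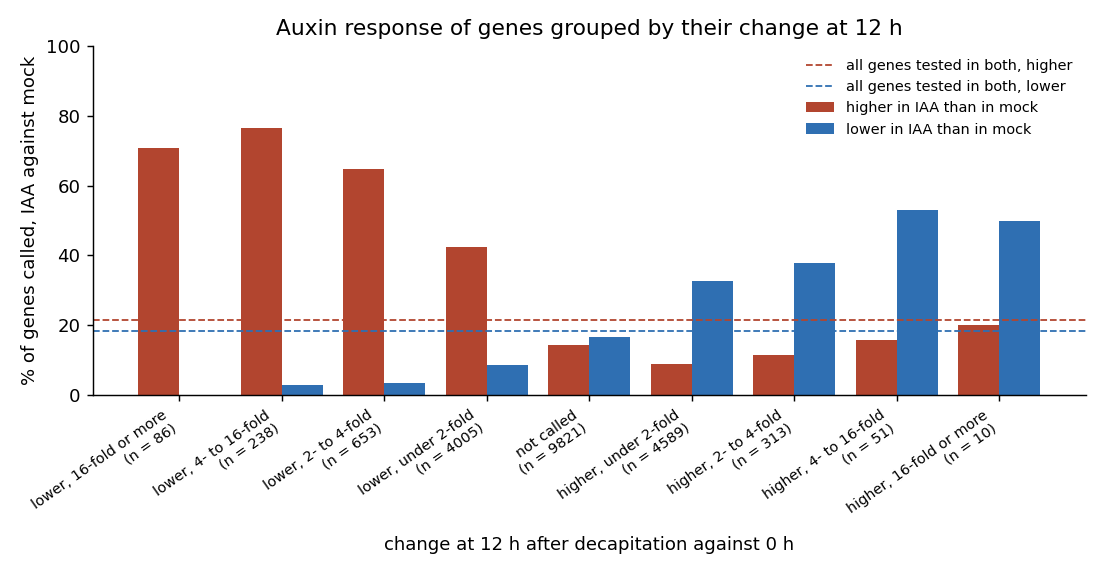
Percentage of genes called higher (red) or lower (blue) in IAA than in mock (vertical) for genes grouped by their change at 12 h against 0 h (horizontal, n genes tested in both experiments). Dashed lines give the percentages over all genes tested in both, 21.4% higher and 18.5% lower, and the red bars stand above the line in every class that was lower at 12 h.

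The plot of auxin calls shows both sides of this relation, and single genes show its limits. Pp3c9_3440V3.1 and Pp3c9_5310V3.1, which lost most in level by 12 h, were higher in IAA. Pp3c9_3440V3.1 had 4084 ± 94.4 CPM in IAA libraries and 1933 ± 148 CPM in mock libraries. Pp3c9_5310V3.1 had 4453 ± 327 CPM in IAA libraries and 2806 ± 197 CPM in mock libraries (SD, n = 3 each; log2 1.08 ± 0.094 and 0.67 ± 0.1, SE; edgeR, adjusted p = 3.78e-05 and 0.000952). Pp3c7_6560V3.1, which gained most, was lower in IAA, at 2331 ± 208 CPM against 2899 ± 30.8 CPM in mock (SD, n = 3 each; log2 -0.31 ± 0.094, SE; edgeR, adjusted p = 0.0265).

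Some genes did not follow the trend. Pp3c21_16210V3.1, which rose at 12 h, was also higher in IAA, at 4.95 ± 1.3 CPM against 0.614 ± 0.315 CPM in mock (SD, n = 3 each; log2 3.01 ± 0.34, SE; edgeR, adjusted p = 0.000181). Pp3c2_6110V3.1, which fell to almost nothing at 12 h, was not called between IAA and mock (edgeR, adjusted p = 0.469). Of the 10 largest decreases, 4 were called higher in IAA, 0 lower, 5 were not called and 1 was not tested. Of the 10 largest increases, 5 were called lower in IAA, 1 higher and 4 not called. Over all genes tested in both, 21.4% were called higher in IAA and 18.5% lower.

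In absolute level the lower genes differed between the experiments even without auxin. The 653 genes 2- to 4-fold lower that were tested in both summed to 62870, 61110 and 61140 CPM in IAA, against 42990, 41790 and 40210 CPM in mock, and averaged 66970 CPM at 0 h. The 238 genes 4- to 16-fold lower summed to 12950, 13650 and 12660 CPM in IAA, against 6958, 6157 and 6183 CPM in mock, and averaged 16580 CPM at 0 h. The 86 genes of the 16-fold class that were tested in both summed to 1753, 2866 and 1831 CPM in IAA, against 997.6, 367.3 and 920.5 CPM in mock, and averaged 6945 CPM at 0 h, or 5251 CPM without replicate 1. In each of these classes every IAA library lay above every mock library, with sums close to the 0 h mean in the 2- to 4-fold class and far below it in the 16-fold class. The 374 higher genes summed to 10650, 11030 and 11640 CPM in IAA, against 15440, 14670 and 15200 CPM in mock, and averaged 10310 CPM at 0 h. The experiments were scaled separately and their growth protocols differ, so levels set across them are approximate, and what the difference between mock and 0 h stems from was not tested.

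What the changed genes shared in level and length was examined by deciles of the 20269 genes. Calls of any size differed between levels. From the lowest to the highest decile of CPM per kilobase, the share called lower rose from decile to decile, starting at 11.2% and ending at 37.0%, whereas the share called higher was 10.8% in the lowest, 30.0% in the fourth and 21.8% in the highest decile. Changes of at least 2-fold had their minimum in the middle: 5.23% of the lowest, 0.839% of the sixth and 2.37% of the highest decile were at least 2-fold higher, and 8.24%, 3.50% and 5.82% were at least 2-fold lower. In each of the 10 deciles of level, genes at least 2-fold lower outnumbered those at least 2-fold higher.

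Large decreases made up a smaller share of the longest gene models than of the shortest. Of gene models with 87 to 1062 bases, 6.12% were at least 2-fold lower, and of those with 4209 to 17220 bases 2.37% were. Over the fold classes the median length fell as the decrease grew, with 2562 bases for genes less than 2-fold lower, 2120 bases at 2- to 4-fold, 1752 bases at 4- to 16-fold and 1412 bases at 16-fold or more. The higher genes showed no such order, with medians of 2251, 2003, 1979 and 2165.5 bases in the same classes. Longer genes collect more read pairs at the same level, which bears on what can be called, and its part in the result was not tested.

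**Figure D5:**
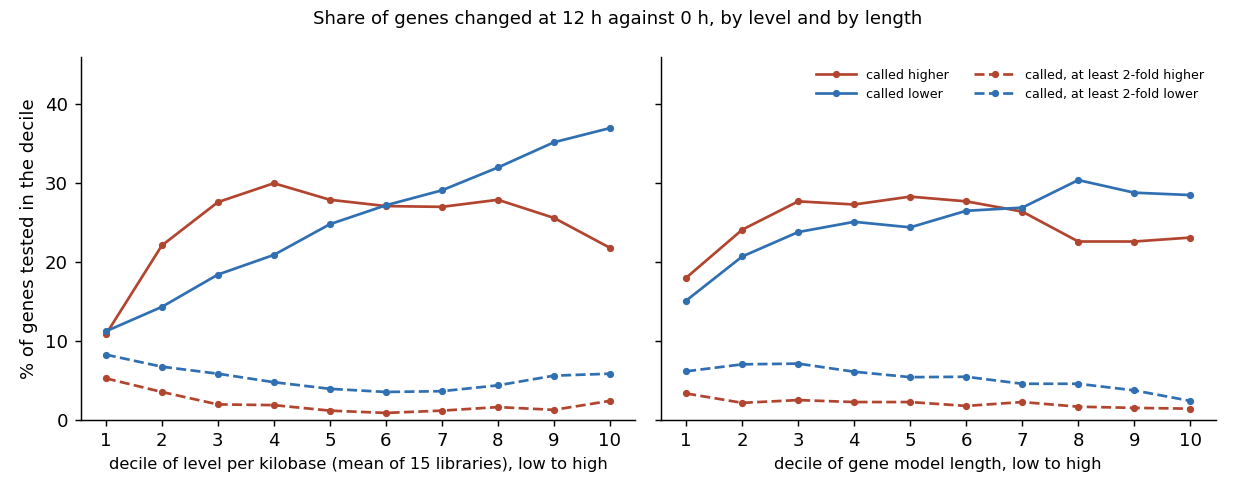
Percentage of the genes of a decile that changed at 12 h against 0 h (vertical), for deciles of level in CPM per kilobase (left) and of gene model length (right), with solid lines for genes called and dashed lines for genes called and at least 2-fold changed. On the left the share called lower ends at 37.0% in the highest decile, and on the right the share at least 2-fold lower ends at 2.37% among the longest models.

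The curves by decile thus differ between calls and large changes. By the chromosome number within the gene identifiers, changed genes were found on every chromosome. Genes at least 2-fold lower made up 3.07% of the tested genes of chromosome 26 and 6.67% of those of chromosome 8, the extremes among 27 chromosomes, and genes at least 2-fold higher between 1.18% on chromosome 15 and 2.92% on chromosomes 17 and 22.

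Most changed genes stood alone in the order of the identifiers, which follows the chromosomes by their numbering, but like neighbours made up a larger share than among all tested genes. The next tested model was also at least 2-fold lower for 119 of 1055 lower genes (11.3%, against 5.22% of all tested genes), and at least 2-fold higher for 26 of 418 higher genes (6.22%, against 2.08% of all tested genes). Without replicate 1 of 0 h these shares were 10.4% and 6.24%. Neighbours of opposite direction followed in 14 and 16 cases. In all, 223 of the lower genes (21.1%) and 51 of the higher genes (12.1%) stood in runs of 2 or more, and the longest runs had 4 models. Reads that fit several places equally well were removed before counting, so near-identical neighbours are undercounted, and overlapping neighbours may share reads. Their part in the runs was not tested.

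Among the runs of 4 lower models, one on chromosome 3 held the largest decrease. Its last member, Pp3c3_29560V3.1, singled out after its values were seen, had 2.98, 2.85 and 1.64 CPM at 12 h, against 143, 82.6 and 94.7 CPM at 0 h, and the groups were far apart (log2 -5.41 ± 0.364, SE; edgeR, adjusted p = 9.82e-09). Leaving out replicate 1 of 0 h gave a log2 fold change of -5.15. The other 3 models of this run had log2 fold changes of -1.15, -3.99 and -3.83. The single run of 3 higher models, on chromosome 8, had log2 fold changes of 2.87, 2.85 and 2.25. Its most abundant member had 66.6, 71.2 and 66.9 CPM at 12 h, against 10.3, 8.24 and 9.89 CPM at 0 h, and the least abundant stayed below 1 CPM in each of these libraries.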

How the data were processed

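Polyadenylated RNA, from 4 µg of total RNA per library, was sequenced as stranded, paired-end TruSeq libraries, per the labels' protocols. Per the submitters' processing notes, Bowtie2 was used; its version, the genome build and the annotation are not given in the sources used here. The deposited values are whole counts of read pairs per gene model, not normalized; per the file headers, reads with several equally good hits were discarded, and a pair needed both mates on 1 model. Use of the strand in counting is not given, so overlapping antisense genes may not be separated.

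The fits used edgeR 4.0.16 and limma 3.58.1 in R 4.3.3: filterByExpr, TMM, glmQLFit and glmQLFTest, with group as the sole term, in a fit of the 15 decapitation libraries (20269 genes) and a fit of the 6 auxin libraries (19989 genes). Genes with a Benjamini-Hochberg adjusted p below 0.05 over all genes tested were called. SE is the absolute log2 fold change over the root of F. CPM were scaled by TMM within each fit, with a prior count of 2 on the log2 scale. The biological coefficient of variation common to all genes was 0.0796 for decapitation and 0.0927 for auxin. Levels between genes were compared as CPM per kilobase of gene model. Depth ran from 18995348 to 32039288 pairs per library, and counting intervals and floors cover counting error alone. Replicates of 12 h and of 0 h differed beyond sampling noise, and each was counted as 1 sample.

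None of the 32926 identifiers matched the RefSeq table of 27567 genes, so the planned lists and cell type markers were not counted, and no sequence is shown. Genes were named by rule, at most 2 per direction: for 12 h against 0 h those with the largest difference in mean CPM, for 12 h against 6 h and 24 h against 12 h those with the largest fold change at a mean of at least 5 CPM, all with groups that do not overlap. The comparison, lists and rules were chosen with earlier results of these data known. Alternatives were RLE factors, library totals, no filter, a minimum of 1 CPM in 3 libraries, a block for the replicate number, DESeq2 1.42.0, 6 or 21 libraries in the fit, reads in place of pairs, a test against 1.5-fold, and leaving out each library. Scripts were tested on simulated data.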

Additional observations from a re-analysis of the deposited data

Results flagged for a closer look

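Among the 4 genes named for the difference between 12 h and 0 h, the effect at 12 h differed from that at 6 h in 1 and from that at 24 h in 3. Pp3c9_5310V3.1, lower at 12 h than at 0 h, was higher at 12 h than at 6 h by a log2 difference of 0.30 ± 0.045 (SE; edgeR, Benjamini-Hochberg adjusted p = 0.00012), with 2032 ± 43.1 CPM in 12 h stems, against 1654 ± 58 CPM in 6 h stems (SD, n = 3 each). All 3 libraries of 12 h lay above all 3 of 6 h. From 12 h to 24 h the log2 difference was 1.56 for Pp3c9_5310V3.1, 1.27 for Pp3c9_3440V3.1 and -1.29 for Pp3c7_6560V3.1 (edgeR, Benjamini-Hochberg adjusted p = 9.44e-13, 2.81e-10 and 2.24e-10), each opposite to the change from 0 h. Each test is that of the difference between the effects at the times named.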

How the results depend on the processing

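Of the alternatives for counts of genes, 173 stayed within 1.5 times the reported count and 5 did not; of those for single genes, 200 kept the direction and the call and 8, all for Pp3c8_7680V3.1, lost the call. A test against 1.5-fold gave 483 increases and 1220 decreases at 12 h. Library totals without a TMM factor, an alternative chosen after seeing the data, gave 7640 higher at 12 h, 661 increases and 743 decreases of 2-fold or more from 12 h to 24 h, where TMM gave 866 and 470, and summed levels of 32200 CPM at 12 h for the lower set and of 32500 CPM at 12 h and 10100 CPM at 0 h for the higher set. Without replicate 1 of 0 h the sums were 28900 CPM at 12 h and 84400 CPM at 0 h for the lower set and 31600 CPM at 12 h and 10700 CPM at 0 h for the higher set. When single libraries were left out, 4379 to 4647 genes were higher and 4312 to 4784 lower, 429 to 448 at least 2-fold higher and 1028 to 1099 at least 2-fold lower. Lower genes called lower at neither step by 12 h numbered 82 to 88 without replicate 1 of 6 h or of 0 h, against 58. Same-numbered libraries of 12 h and 0 h did not deviate together (correlations of 0.0597, 0.038 and -0.0254), so the replicate numbers are not taken as pairs; with the replicate number as a block, 5086 genes were higher and 5171 lower, 421 and 1060 of them at least 2-fold. The causes were not tested. Genes of few pairs are limited by depth, and 3 pools per group limit every p-value.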
